A study of Mus musculus with 21 samples.

Results

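The 10 genes studied here are ones that activated microglia place on their surface, hold in their lysosomes or secrete, and they were followed in bulk RNA from the brains of GA-Camk2a mice and control mice. They were chosen by symbol, as Clec7a, Itgax, Axl, Gpnmb, Cd52, Cst7, Cd68, Spp1, Lyz2 and Lgals3, and each matched 1 row, giving 10 of 64361 genes in the count table. GA-Camk2a mice carry a floxed-stop transgene for poly-GA fused to GFP, and Camk2a-Cre switches it on in excitatory neurons on a C57BL/6J background. Poly-GA is the dipeptide repeat protein made from the C9orf72 repeat expansion of amyotrophic lateral sclerosis. The controls are labelled only as controls. For stained sections of this line, the study's text names Camk2a mice as the controls for Plin4 and gives the controls for Serpina3n as WT. Neither that text nor the labels gives the genotype of the controls sequenced. All mice were 30 to 40 weeks old, the transgenic mice came from few litters, and sex was not given in the labels. The 21 libraries comprised cortex from 5 control and 6 GA-Camk2a mice and hippocampus from 4 control and 6 GA-Camk2a mice. The study's text gives the control numbers of these tissues the other way round, and the labels were followed. The libraries came from 11 mice, of which 10 gave both tissues. The separate mice are the replicates, and nothing says how controls and transgenic mice were distributed over litters.

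Microglia, the resident macrophages of the brain, sense damage through the receptor Trem2 and its adaptor Tyrobp, and near protein deposits, dying neurons or myelin debris they take on an activated state. In that state they raise phagocytic receptors and lysosomal proteins, and release proteins that bind cells and matrix. Clec7a (Dectin-1) is a glucan receptor that signals through Syk and Card9. Itgax is the CD11c integrin chain, which pairs with Itgb2. Axl is a receptor kinase that binds Gas6 and, with Mertk and Tyro3, takes part in the uptake of dead cells. Gpnmb is a transmembrane glycoprotein of lysosomes and the cell surface, and Cd52 is a small lipid-anchored surface glycoprotein. Cst7 (cystatin F) inhibits cathepsins such as the activator Ctsc, and Cd68 is a lysosomal membrane glycoprotein. Spp1 (osteopontin) is a secreted ligand of Cd44 and of integrins, Lyz2 is the macrophage lysozyme, and Lgals3 (galectin-3) is a lectin that is secreted and binds damaged lysosomes.

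Totals ran from 1048201 to 5888102 counts per library (median 1975173), and hippocampal controls were the deepest group (median 3732867). Mitochondrial genes took 10.9% to 15.4% of counts. The GFP row held 0 to 4 counts per library, including 2 control libraries with a count, so it gave no check of the genotype labels in these libraries made from the 3′ ends of transcripts. The hippocampal marker list separated the tissue labels, with a sum of 563 to 775 CPM (counts scaled to a library total of 1000000) in hippocampus and of 91.7 to 154 CPM in cortex. The cortex list did not. It summed to 223 to 690 CPM in cortex and 165 to 5370 CPM in hippocampus, and without Rorb to 78.4 to 174 CPM and 67.4 to 90.9 CPM. Its genes Cux2 and Tbr1 were lower in hippocampus than in cortex, and Fezf2 was higher. Within transgenic mice Rorb was also higher in hippocampus than in cortex (log2 difference 2.10, adjusted p = 0.0401). Rorb reached 1455, 5303 and 4414 CPM in the hippocampi of control mouse 11 and GA-Camk2a mice 16 and 30, against 86.6 to 165 CPM in the other 7, and 612 CPM in the cortex of mouse 41. Choroid plexus genes ran from 1810 to 55530 CPM in hippocampus. The hippocampal library of GA-Camk2a mouse 41 stood apart. Its neutrophil list summed to 860 CPM against 10.5 to 16.9 CPM in the other 5 transgenic hippocampi, its blood list to 5554 CPM against 693 to 1704 CPM, and its monocyte and border macrophage list to 148 CPM against 26.0 to 52.2 CPM. Hippocampal results of the members and of the marker lists it touches are therefore also given without that library, and those of the members without the 3 libraries high in Rorb.

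Promoter windows are shown for 4 members that differ in role and hold a motif match: the lysosomal inhibitor Cst7, the surface receptor Itgax, the lysosomal Cd68 and the secreted Lyz2. Each is the 250 bases before a RefSeq transcript start on GRCm38.p6, read 5′ to 3′ on the gene's strand. Capitals mark matches, on either strand, to GGAAGT (the core of many PU.1 sites), TGANTCA (AP-1), TCANGTGA (an E-box of the MITF and TFE family) or CACGTG (another E-box), and no printed match overlapped one of another motif.
Cst7, chr2:150570165-150570414, plus strand: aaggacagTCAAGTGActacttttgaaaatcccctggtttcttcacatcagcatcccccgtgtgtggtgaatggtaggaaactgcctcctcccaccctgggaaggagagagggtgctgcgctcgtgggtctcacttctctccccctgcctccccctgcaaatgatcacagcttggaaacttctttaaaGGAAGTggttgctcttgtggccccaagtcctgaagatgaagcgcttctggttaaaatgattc
Itgax, chr7:128129300-128129549, plus strand: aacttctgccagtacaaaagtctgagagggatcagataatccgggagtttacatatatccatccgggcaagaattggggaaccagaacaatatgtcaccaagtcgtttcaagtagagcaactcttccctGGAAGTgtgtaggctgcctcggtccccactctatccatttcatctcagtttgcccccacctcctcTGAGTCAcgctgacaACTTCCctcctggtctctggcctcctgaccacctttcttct
Cd68, chr11:69666171-69666420, minus strand: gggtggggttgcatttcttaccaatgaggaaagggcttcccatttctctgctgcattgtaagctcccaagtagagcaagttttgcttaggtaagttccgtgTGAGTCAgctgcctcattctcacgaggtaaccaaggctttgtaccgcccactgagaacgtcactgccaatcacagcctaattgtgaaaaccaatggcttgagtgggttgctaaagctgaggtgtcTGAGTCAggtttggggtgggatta
Lyz2, chr10:117282273-117282522, minus strand: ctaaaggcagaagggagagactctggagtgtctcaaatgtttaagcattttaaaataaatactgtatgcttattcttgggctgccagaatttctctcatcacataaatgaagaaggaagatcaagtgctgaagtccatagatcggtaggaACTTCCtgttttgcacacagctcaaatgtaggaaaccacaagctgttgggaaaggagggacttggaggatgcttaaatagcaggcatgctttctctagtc

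RefSeq windows matched 9 of the 10 members (all but Cd52), with 11 windows because Clec7a and Spp1 have 2 starts each. GGAAGT lay in a window of 4 members (Cst7, Itgax, Spp1 and Lyz2) and in 19.7% of the 32851 windows of the table. TGANTCA lay in those of Itgax and Cd68 and in 6.75% of all windows. TCANGTGA lay in those of Cst7 and Lgals3 and in 3.45% of all windows, and CACGTG in none of the members' windows and in 6.02% of all. Clec7a, Axl and Gpnmb held none of the 4 motifs in these letters. The matches describe the windows and are not sites shown to be bound.

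Every member lay higher in GA-Camk2a than in control mice, in both tissues, wherever it could be tested. In cortex 9 of 9 tested members rose (edgeR quasi-likelihood test, Benjamini-Hochberg adjusted p from 9.03e-09 to 0.00595), where 6.35% of the 13058 genes tested rose. In hippocampus 10 of 10 rose (adjusted p from 8.00e-06 to 0.00289), where 4.97% of 14884 genes rose. None fell, against 6.16% and 5.95% of all genes. The median change of all genes tested was close to 0 on the log2 scale (-0.0049 in cortex and 0.016 in hippocampus). These counts are not independent of the filter on low counts: 5 members met it through control libraries alone in cortex (Axl, Spp1, Cd68, Cd52 and Lyz2) and 6 in hippocampus (the same and Lgals3), and the others passed it through the transgenic libraries. Bulk tissue cannot tell more microglia from more RNA of a gene per microglial cell.

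**Figure D1:**
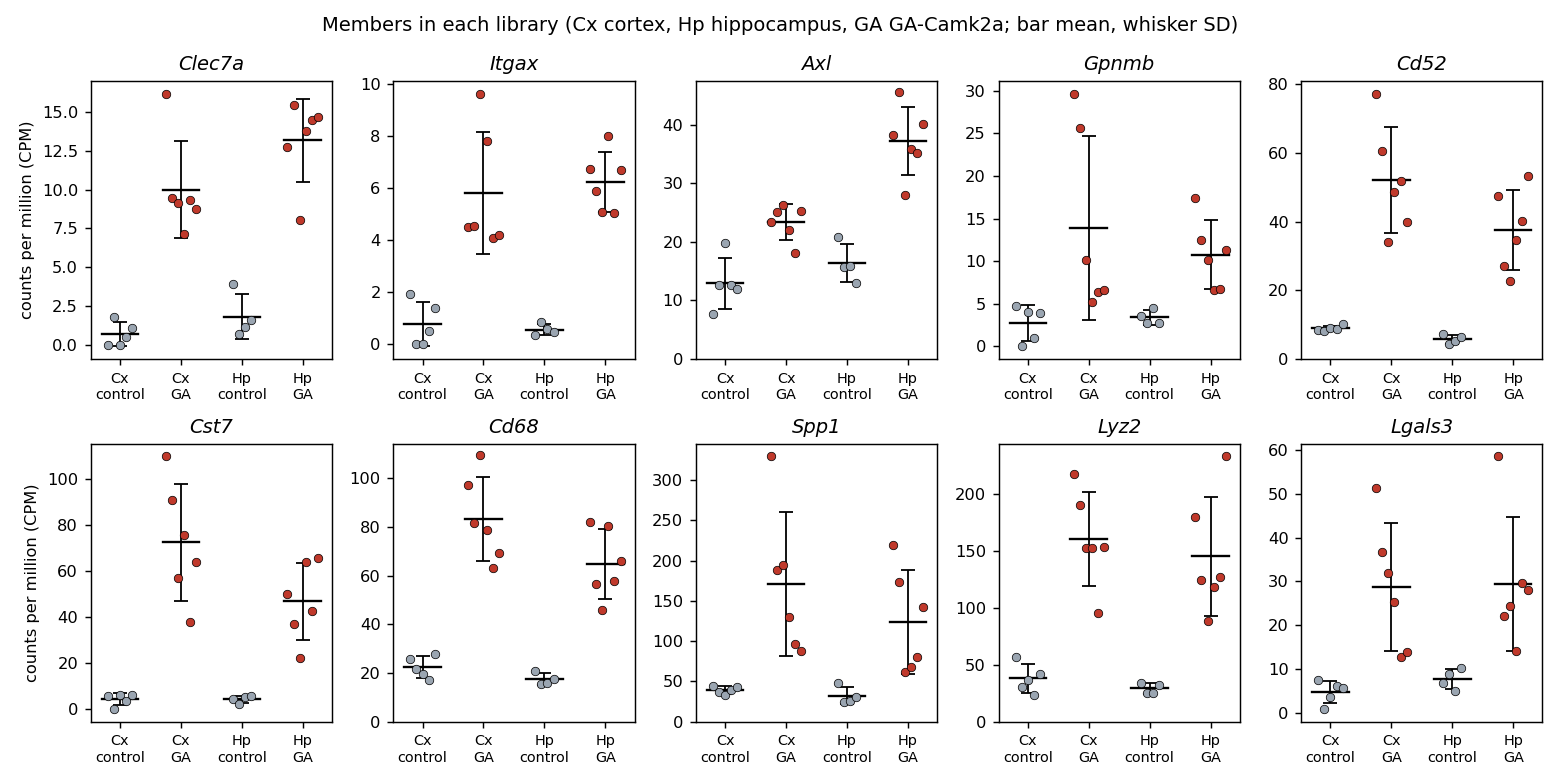
Level of each member in every library, in CPM on a linear axis from 0, for control (grey) and GA-Camk2a (red) mice in cortex and hippocampus, with the group mean (bar) and SD (whisker). All GA-Camk2a points lie above all control points in both tissues for every member except Axl in cortex, where the highest control reached 19.8 CPM and the lowest transgenic library 18.1 CPM.

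Without any overlap between groups, all 6 GA-Camk2a libraries lay above all controls for 9 of 10 members in cortex and for 10 of 10 in hippocampus. Among all genes tested this held for 3.5% in cortex and 5.6% in hippocampus. The 9 in cortex include Itgax, which failed the filter and is not among the genes tested there. Cst7, Clec7a, Gpnmb and Lgals3 met the cortical filter through the transgenic libraries. Axl in cortex was the exception.

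Of the surface receptors, Clec7a and Itgax were close to absent in controls. Clec7a stood at 0, 1.82, 0, 0.506 and 1.11 CPM in the 5 cortical controls, which is 7 counts in all, and at 7.15 to 16.2 CPM (median 9.22) in the transgenic cortices. A count of 0 in the shallowest of these controls still allows up to 2.86 CPM. The groups did not overlap, and the log2 fold change was 3.77 (SE 0.41, adjusted p = 1.57e-06). Hippocampal controls held 3.90, 0.679, 1.14 and 1.6 CPM of Clec7a, and transgenic hippocampi 8.06 to 15.4 CPM (median 14.1), a log2 fold change of 2.84 (SE 0.36, adjusted p = 0.000125).

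Itgax, the CD11c chain, was the sparsest member and failed the filter in cortex, where no control and 2 transgenic libraries reached its minimum of 5.07 CPM. Its cortical controls held 1.91, 0, 0, 0.506 and 1.39 CPM, 8 counts in all, and its transgenic cortices 4.08 to 9.62 CPM (median 4.52). The groups were thus separate there too, and with no filter the log2 fold change was 2.78 (SE 0.47). In the 4 hippocampal controls Itgax stood at 0.325, 0.849, 0.570 and 0.456 CPM, and in transgenic hippocampi at 5.02 to 7.98 CPM (median 6.27). The coefficient of variation of Itgax was 18.2%, the lowest among transgenic hippocampi after that of Axl. It rests on 8 to 19 counts per library, too few to tell a spread between mice from counting error. The log2 fold change was 3.25 (SE 0.35, adjusted p = 3.79e-05).

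Axl, the receptor kinase, changed least. Its cortical controls held 7.63, 12.7, 19.8, 12.7 and 11.9 CPM, and the transgenic cortices 18.1 to 26.3 CPM (median 24.3). Here 5 of 6 transgenic libraries exceeded the highest control, and the log2 fold change was 0.80 (SE 0.18, adjusted p = 0.00389), the 327th largest of all genes tested. Axl was the member whose cortical call was lost with fewer data, at an adjusted p of 0.368 within batch 2 (log2 fold change 0.68) and of 0.0862 after thinning every library to the depth of the smallest (1.15). In hippocampus the controls held 20.8, 15.6, 16 and 13 CPM and the transgenic libraries 28.1 to 45.5 CPM (median 37.1), without overlap. The log2 fold change was 1.14 (SE 0.15, adjusted p = 0.000163).

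Gpnmb showed the widest spread among transgenic cortices. It stood at 4.77, 0, 4.03, 1.01 and 3.88 CPM in cortical controls and at 5.2 to 29.7 CPM (median 8.39) in transgenic cortices, so that the lowest transgenic library lay just above the highest control. Mice 16 and 23 held 29.7 and 25.6 CPM and the other 4 at most 10.1 CPM. The log2 fold change was 2.14 (SE 0.50, adjusted p = 0.00595). Hippocampal controls held 3.57, 2.72, 4.56 and 2.74 CPM and transgenic hippocampi 6.65 to 17.4 CPM (median 10.7), a log2 fold change of 1.71 (SE 0.31, adjusted p = 0.00212).

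Cd52 varied little between cortical controls, at 8.59, 8.17, 9.16, 8.61 and 10.3 CPM, and stood at 7.14, 4.25, 5.13 and 6.38 CPM in hippocampal controls. Transgenic cortices held 33.9 to 77.3 CPM (median 50.3) and transgenic hippocampi 22.7 to 53.4 CPM (median 37.4). Neither tissue showed an overlap. The log2 fold changes were 2.48 in cortex (SE 0.19, adjusted p = 9.03e-09) and 2.67 in hippocampus (SE 0.26, adjusted p = 2.02e-05), or 5.58-fold and 6.37-fold. Lymphocytes also express Cd52. The B cell list summed to at most 2.03 CPM in control and 5.39 CPM in transgenic cortices, and the T cell list to 22.3 to 49.6 CPM and 22.3 to 30.1 CPM. Most of that T cell sum was Trbc2, its 1 tested gene, which fell in cortex (-0.69, adjusted p = 0.0258). The other 7 genes were too sparse to test there. Cd4 held 76 counts over the control and 16 over the transgenic cortices, Trac 17 and 32, Cd3e 6 and 11, Cd3d 2 and 10, Cd3g 6 and 13, Cd8a 1 and 3, and Cd8b1 3 and 9. In hippocampal controls the B cell list reached 2.85 CPM and the T cell list 7.98 CPM. In the transgenic hippocampus of mouse 41 they stood at 20.0 and 17.3 CPM, and in the other 5 at most at 3.58 and 10.6 CPM. The part of lymphocytes in the Cd52 difference was not tested.

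Of the lysosomal members, the cathepsin inhibitor Cst7 had the largest difference in both tissues. It stood at 5.72, 0, 6.23, 3.54 and 6.10 CPM in cortical controls and at 37.9 to 110 CPM (median 69.5) in transgenic cortices, far apart. The log2 fold change was 3.87 (SE 0.30, adjusted p = 9.03e-09), a 14.6-fold difference and the 2nd largest rise among 13058 genes. Hippocampal controls held 4.55, 2.04, 5.13 and 5.47 CPM, and transgenic hippocampi 22.1 to 65.4 CPM (median 46.2). The groups did not overlap, with a log2 fold change of 3.47 (SE 0.34, adjusted p = 1.94e-05), or 11.1-fold. Cd68, in contrast, was readily counted in controls, at 25.8, 21.8, 19.8, 17.2 and 28.0 CPM in cortex and 20.8, 15.6, 16 and 17.6 CPM in hippocampus. Transgenic cortices held 63.0 to 109 CPM of Cd68 (median 80.2) and transgenic hippocampi 45.7 to 81.9 CPM (median 62.0). Its rise was of like size in both tissues, with log2 fold changes of 1.88 (SE 0.16, adjusted p = 3.07e-08) and 1.84 (SE 0.16, adjusted p = 8.00e-06).

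Among the secreted members, Spp1 and Lgals3 varied widely between transgenic mice (coefficient of variation 52.3% in cortex and 52.0% in hippocampus for Spp1, 50.8% and 51.6% for Lgals3). Spp1 stood at 43.9, 36.3, 33.0, 40.0 and 43.2 CPM in cortical controls and at 87.8 to 330 CPM (median 160) in transgenic cortices. All 6 transgenic cortices lay above the controls. The log2 fold change was 2.11 (SE 0.25, adjusted p = 4.97e-06). Hippocampal controls held 48.1, 24.6, 26.2 and 31 CPM and transgenic hippocampi 61.8 to 220 CPM (median 111), again without overlap, for a log2 fold change of 1.90 (SE 0.35, adjusted p = 0.00231).

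Lyz2 stood at 57.2, 30.9, 36.3, 23.8 and 41.6 CPM in cortical controls and at 95 to 218 CPM (median 153) in transgenic cortices (log2 fold change 2.11, SE 0.18, adjusted p = 6.20e-08). In hippocampus the controls held 34.1, 24.8, 25.6 and 32.1 CPM and the transgenic libraries 88.4 to 234 CPM (median 126), for a log2 fold change of 2.25 (SE 0.23, adjusted p = 2.75e-05). Both tissues were free of overlap. Lyz1, its near-identical neighbour, rose alongside (2.22 and 2.42 on the log2 scale), and how reads that fit both were shared is not given, so the split between the paralogs is uncertain.

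Lgals3 held 7.63, 0.908, 3.66, 6.08 and 5.82 CPM in cortical controls and 12.8 to 51.2 CPM (median 28.6) in transgenic cortices, without overlap (log2 fold change 2.48, SE 0.36, adjusted p = 5.48e-05). Hippocampal controls held 6.82, 9, 5.13 and 10.3 CPM, and transgenic hippocampi 14.2 to 58.5 CPM (median 26.3). Although the groups were separate, the hippocampal change was the one with the weakest support among the members (log2 fold change 1.80, SE 0.34, adjusted p = 0.00289).

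**Figure D2:**
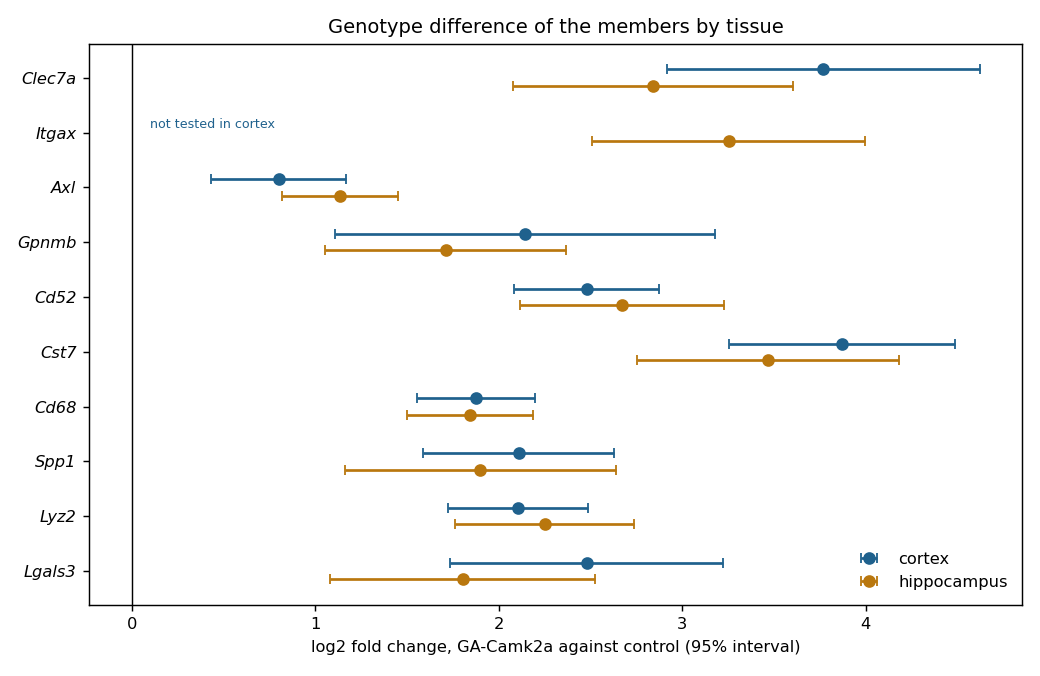
Log2 fold change of each member between GA-Camk2a and control mice, with its 95% interval, in cortex (blue) and hippocampus (orange). All intervals lie above 0, and those of the same gene overlap between the tissues. Itgax was not tested in cortex.

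Within the 2 batches of the labels the direction of each tested member was the same as over both. In cortex 10 of 10 members passed in batch 1 alone (4 transgenic, 3 control libraries; log2 fold changes from 0.85 for Axl to 3.92 for Clec7a), where 3.26% of all genes rose, and 7 of 8 tested in batch 2 alone (2 and 2 libraries; 0.68 for Axl to 4.90 for Cst7), where 1.12% rose. In hippocampus 5 of 10 passed in batch 1 alone (3 and 2 libraries), beside 0.301% of all genes, namely Cst7 (3.09), Itgax (3.86), Cd68 (1.81), Cd52 (2.33) and Lyz2 (1.92). The other 5 missed the threshold there (adjusted p from 0.0785 for Clec7a to 0.276 for Spp1), at log2 fold changes of 2.07 for Clec7a, 0.99 for Axl, 1.55 for Spp1, 1.85 for Gpnmb and 1.87 for Lgals3. All 10 passed in batch 2 alone (3 and 2 libraries), beside 2.42% of all genes, and the log2 fold change of Clec7a was 4.08 there. Without the library of mouse 41 all 10 hippocampal members passed as well, at log2 fold changes of 3.33 for Cst7, 2.55 for Cd52 and 2.07 for Lyz2, the members that were highest in that library. Without the 3 hippocampal libraries high in Rorb, 10 of 10 passed too, at 1.29 for Lgals3 to 3.76 for Cst7. Among all genes, 739 rose in hippocampus in the main fit and 449 to 814 with 1 library left out. Over the other alternatives, the one without the libraries high in Rorb included, 48 to 977 rose.

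The size of the genotype difference was then compared between the tissues. Of the members, 0 of 10 passed in the test of that difference (adjusted p from 0.704 to 0.995), 0 had an unadjusted p under 0.05, and 0 passed in DESeq2 or limma. Among all 14751 genes 0.414% passed, 24 higher and 37 lower. That background is unsteady, at 7 to 34 and 13 to 42 genes with 1 library left out and at 0 to 61 and 0 to 103 in the alternative analyses. The intervals are wide for the sparse members: the hippocampal minus the cortical log2 fold change lay between -2.37 and 0.46 for Clec7a, between -1.13 and 1.86 for Itgax and between -1.87 and 0.52 for Lgals3. They are narrower for Cd68 (-0.54 to 0.46), Axl (-0.16 to 0.79) and Lyz2 (-0.52 to 0.82). The test does not show that the tissues responded alike.

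Levels themselves differed between tissues for a few members. In transgenic mice Axl was higher in hippocampus than in cortex (log2 difference 0.54, SE 0.13, adjusted p = 0.00447), in 6 of 6 mice. Cst7 (-0.73, adjusted p = 0.0267), Cd52 (-0.59, adjusted p = 0.0272) and Cd68 (-0.42, adjusted p = 0.0353) were lower in hippocampus, Cst7 in 4 of 6 mice and the others in 5 of 6. These shares, 1 of 10 higher and 3 of 10 lower, stand beside 16.9% higher and 16.3% lower among all genes. With the mouse as a block, 5 members passed in place of 4, Spp1 being the added one (-0.65, adjusted p = 0.0151). The call of Cst7 was lost in 6 of 13 alternative analyses, among them DESeq2 with batch (-0.74, adjusted p = 0.0681). Without the 3 hippocampal libraries high in Rorb, Cst7 (-0.48) and Cd68 (-0.35) missed the threshold and Spp1 passed (-0.96, adjusted p = 0.0343). The count rested on single libraries: it fell to 1 without the cortex of mouse 16, the hippocampus of mouse 23 or the hippocampus of mouse 30, and to 2 without the cortex of mouse 23. In control mice 1 of 8 tested members differed: Cd52 was lower in hippocampus (-0.68, SE 0.22, adjusted p = 0.0405), in 4 of 4 mice, beside 8.9% higher and 7.62% lower among all genes. That call was lost with the mouse as a block, where 0 members passed, and in 7 of 9 fits that left out 1 library, namely the cortex of mouse 20, 37 or 38 or the hippocampus of mouse 11, 20, 31 or 37 (-0.75 to -0.58). Without the cortex of mouse 31, 2 members passed. In batch 2 alone Cd52 missed the threshold (-0.95, adjusted p = 0.137) and Spp1 passed (-0.66, adjusted p = 0.0464).

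**Figure D3:**
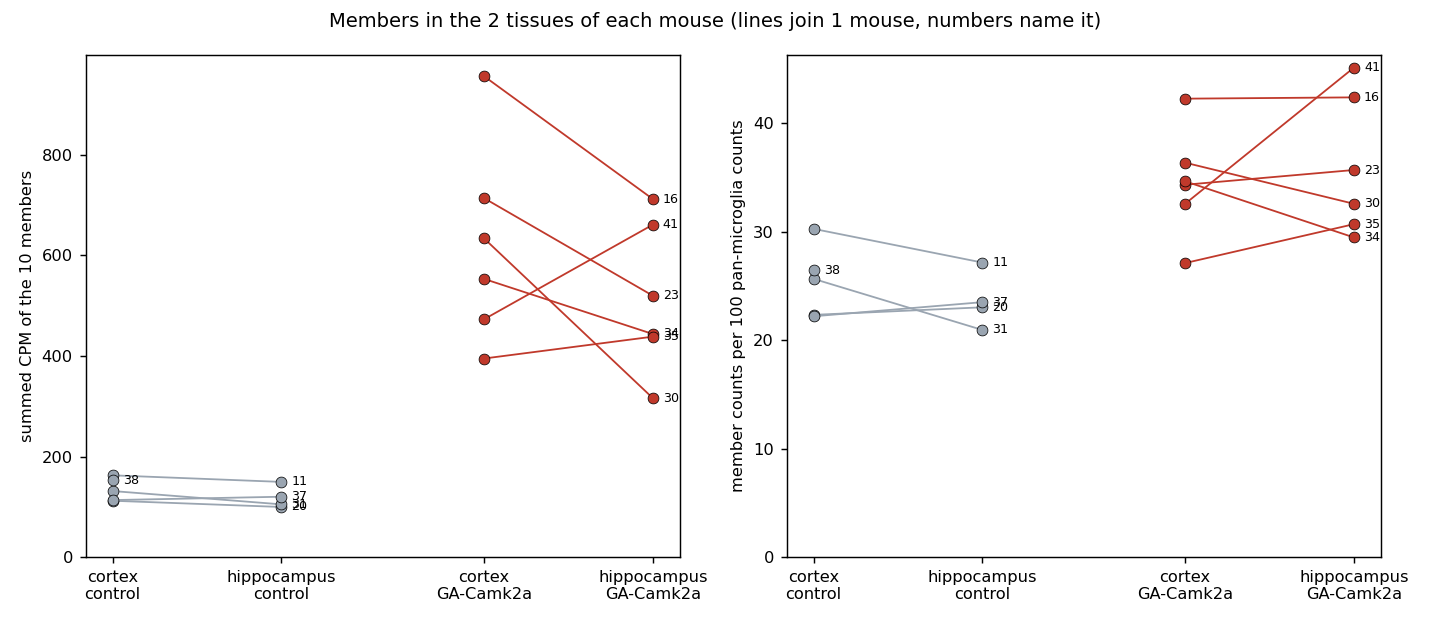
Summed CPM of the 10 members (left) and member counts per 100 counts of the 12 pan-microglia genes (right) in cortex and hippocampus of each mouse, lines joining the tissues of 1 mouse and numbers naming it. The summed level was 113 to 163 CPM in cortical controls and 395 to 956 CPM in transgenic cortices, and 100 to 150 CPM against 317 to 712 CPM in hippocampus.

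Transgenic mice differed among themselves in how far the members rose. The summed CPM of the 10 members spanned 395 to 956 CPM over the 6 cortices, with mouse 16 highest and mouse 35 lowest. Mouse 16 held the highest level of 7 of 10 members in cortex and of 4 of 10 in hippocampus, and mouse 30 the lowest of 7 of 10 in hippocampus although it was highest for 3 in cortex. The order of mice in one tissue was thus not that in the other. The hippocampi of mice 16 and 30 were high in Rorb (5303 and 4414 CPM) and in choroid plexus genes (55530 and 49801 CPM). The cortex of mouse 16 held 1112553 counts and was in batch 2, its hippocampus in batch 1. The part of these features in the order of mice was not tested. The ratio of the highest to the lowest transgenic cortex ran from 1.46 for Axl to 5.71 for Gpnmb.

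After a fit of tissue and batch over the 12 transgenic libraries of 6 mice, each of the 9 members that could be used correlated with the mean of the others, at Pearson r from 0.52 for Axl to 0.85 for Spp1. These libraries share mice and batches, and the values are a description. The genes outside the list whose pattern was most like the members' mean, among 11630 compared, were Fcgr2b (r = 0.956), an inhibitory Fc receptor, Vim (0.924), an intermediate filament protein, Crnkl1 (0.918), Dbndd2 (0.916) and C1qc (0.915), a complement subunit made by microglia.

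Genes that bind, pair with or regulate the members moved in part. In cortex 7 of 13 tested partners rose and 1 fell, and in hippocampus 7 of 14 rose and 0 fell. The 7 that rose were the same genes in both tissues: Itgb2, the integrin partner of Itgax (1.31 in cortex and 1.56 in hippocampus on the log2 scale), Pros1, a ligand of the Axl family (1.11 and 1.2), the osteopontin receptor Cd44 (1.11 and 2.07), the protease Ctsc (1.2 and 1.09), the galectin-3 binding protein Lgals3bp (2.12 and 1.64), Lyz1 (2.22 and 2.42) and the lysosomal Lamp1 (0.33 and 0.37). Of these, Cd44 and Lamp1 in cortex had the weakest support (adjusted p = 0.0281 and 0.0330). The cortical Cd44 call was lost when mouse 16, 23, 30, 31 or 37 was left out (log2 fold change 0.93 to 1.15), and that of Lamp1 without mouse 16, 23, 31, 35 or 37 (0.25 to 0.33). Among the alternative analyses that kept all mice or left out whole sets of libraries, Cd44 in cortex missed the threshold in 6 of 11 (0.87 to 1.87), among them the mouse as a block (adjusted p = 0.0554) and no batch term (adjusted p = 0.0503), and Lamp1 in 4 of 13 in each tissue (0.23 to 0.48). Ctsc missed it in 1 of 13 in cortex and 2 of 13 in hippocampus, Pros1 in 1 in each tissue, and Itgb2, Cd44 and Lgals3bp in 1 each in hippocampus. In hippocampus the Lamp1 call was also lost without control mouse 31 (0.32).

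Lgals3bp stood at 14.1 to 19.1 CPM in cortical controls and at 50.6 to 92.6 CPM in transgenic cortices, and the groups did not overlap. The ligand of Axl, Gas6, did not pass, at 30.9 to 42.1 CPM against 33.2 to 42.0 CPM in cortex (log2 fold change 0.06, adjusted p = 0.803) and 0.36 in hippocampus (adjusted p = 0.217). Nor did Mertk (0.51, adjusted p = 0.125, and 0.61, adjusted p = 0.0695), although it passed in hippocampus without control mouse 20 (0.84) or transgenic mouse 30 (0.70), after thinning (1.13, adjusted p = 0.0226), and with the mouse as a block (0.57, adjusted p = 0.0339). Tyro3, the neuronal relative of Axl, fell in cortex, from 50.6 to 75.1 CPM in controls to 27.0 to 46.6 CPM (-0.67, SE 0.13, adjusted p = 0.000967). That call was lost in batch 2 alone (-0.79, adjusted p = 0.0655) and after thinning (-0.59, adjusted p = 0.0857). Its hippocampal value was -0.12 (adjusted p = 0.519), and the difference between tissues did not pass (adjusted p = 0.166).

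The remaining partners gave no call. Log2 fold changes in cortex and hippocampus were -0.25 and 0.18 for the integrin chain Itgav, -0.0055 and 0.34 for Mitf, a transcription factor of lysosomal genes, and 0.57 and 0.49 for its relative Tfeb. Siglecg was tested in hippocampus alone (0.52, adjusted p = 0.364). The Clec7a signalling genes Syk and Card9 were too low to test in either tissue, with Syk at 0 to 2.86 CPM in cortex and Card9 at 1.01 to 5.78 CPM. In hippocampus Syk stood at 1.14 to 2.85 CPM in control and 1.79 to 4.44 CPM in transgenic libraries. Card9 stood there at 2.51 to 3.42 CPM and 0.896 to 5.57 CPM. The highest hippocampal control was exceeded by 4 of 6 transgenic libraries for Syk and by 1 of 6 for Card9.

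The members were also set beside other microglial genes. Of the pan-microglia list 11 of 12 rose in each tissue (all but Itgam), with a median log2 fold change of 1.70 in cortex and 1.46 in hippocampus. Its lowest adjusted p in cortex belonged to the complement subunit C1qa (1.99), the Toll-like receptor partner Ly86 (1.94) and C1qb (1.73), and in hippocampus to C1qa (1.5), the cathepsin Ctss (1.74) and C1qb (1.48). Of other disease-associated microglia genes 17 of 22 rose in cortex and 17 of 23 in hippocampus, with medians of 0.87 and 0.94. The lowest adjusted p belonged to the chemokine Ccl6 (2.65), B2m (1.93) and Tyrobp (1.85) in cortex and to Trem2 (1.93), B2m (1.38) and Tyrobp (1.6) in hippocampus. The members' medians were 2.14 over 9 genes and 2.08 over 10, with those included that passed the filter through the transgenic group.

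**Figure D4:**
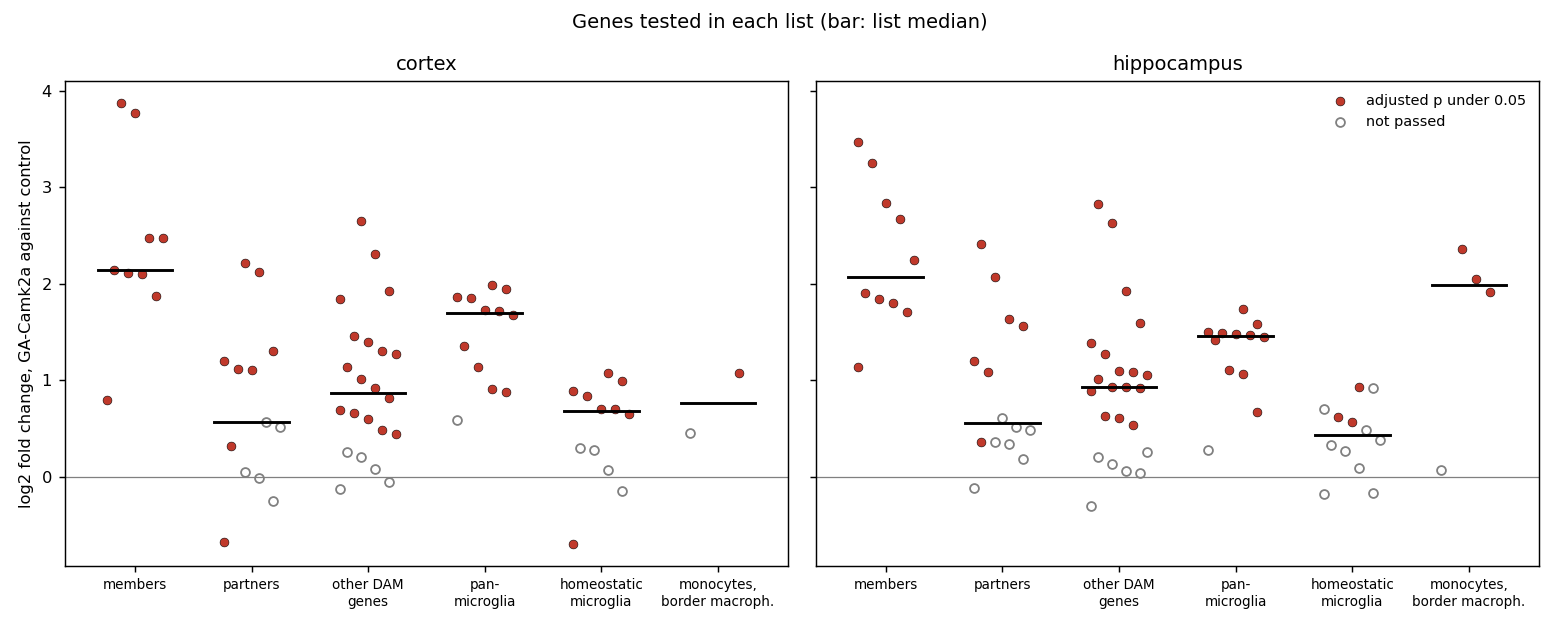
Log2 fold change of every tested gene of 6 lists in cortex (left) and hippocampus (right), with filled points for adjusted p under 0.05, open points for the rest and a bar at each list's median. The medians of the members (2.14 and 2.08) lie above those of the pan-microglia list (1.70 and 1.46) and of the homeostatic list (0.68 and 0.44). The monocyte and border macrophage list has medians of 0.77 over 2 genes in cortex and 1.99 over 4 in hippocampus. Its hippocampal median was 1.87 without mouse 41. DAM stands for disease-associated microglia.

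Homeostatic genes, which surveying microglia express, changed less. In cortex 7 of 12 rose, with the fractalkine receptor Cx3cr1 (0.89) and Fcrls (0.99) among them, and Mef2c fell (-0.69, adjusted p = 9.99e-05). Mef2c is also a neuronal gene. In hippocampus 3 of 12 rose, with Cx3cr1 (0.93) and Gpr34 (0.62) among them. The list summed to 447 to 677 CPM in control and 380 to 543 CPM in transgenic cortices, and to 273 to 293 CPM and 303 to 439 CPM in hippocampus. Mef2c made up most of the sum in cortical controls, at 286 to 507 CPM, and stood at 181 to 290.2 CPM in transgenic cortices. Without it the list summed to 158 to 175 CPM and 199 to 294 CPM. Without mouse 41, 2 of 12 rose in hippocampus, and Gpr34 missed the threshold (0.58, adjusted p = 0.0677).

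Members were next expressed per 100 counts of the 12 pan-microglia genes of the same library, and these ratios are given without a test. The library total cancels in them, but their counting error, and so the overlap of groups, still depends on depth. Hippocampal controls were the deepest group. In cortex Cst7, Clec7a and Cd52 had all transgenic libraries above all controls, 3 of 10 members. In hippocampus Itgax, Cd68 and Lyz2 joined these, 6 of 10. Among genes with a mean count of at least 10, 0.0541% did so in cortex and 0.135% in hippocampus. Itgax lies below that mean count, and of the 9 members that reach it 3 were separate in cortex and 5 in hippocampus. That share is low because the pan-microglia sum itself rose, from 504 to 579 CPM in controls to 1453 to 2263 CPM in transgenic cortices. Cst7 went from at most 1.21 to at least 2.60 per 100 pan-microglia counts in cortex and from at most 1.07 to at least 2.27 in hippocampus.

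Cd52 per 100 pan-microglia counts went from at most 1.78 to at least 1.95 in cortex and from at most 1.29 to at least 1.86 in hippocampus. Gpnmb, Spp1 and Lgals3 overlapped in both tissues on this scale, with ratios of group means between 1.14 and 1.72. Axl was the member whose ratio of group means was below 1, at 0.549 in cortex and 0.810 in hippocampus, with overlapping groups. Against the homeostatic list in place of the pan-microglia list, 10 of 10 members in cortex and 7 of 10 in hippocampus were separate, beside 4.27% and 1.1% of genes. Itgax is among them in both tissues, yet lies below the mean count required for the shares given here. The cortical count rests in part on Mef2c, which fell: with it left out of the reference, a choice made after its level was seen, 8 of 10 were separate in cortex and 7 of 10 in hippocampus, beside 0.602% and 1.04% of genes.

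Macrophages outside the microglia express several members too. Of the 9 monocyte and border macrophage markers, 2 could be tested in cortex, of which the platelet factor Pf4 rose (1.08, adjusted p = 0.0254). In hippocampus 3 of 4 tested rose: S100a4 (1.92, adjusted p = 0.000961), the mannose receptor Mrc1 (2.05, adjusted p = 0.00500) and Pf4 (2.36, adjusted p = 0.0449). The list summed to 12.1 to 28.2 CPM in control and 29.1 to 42.2 CPM in transgenic cortices, and to 18.2 to 20.8 CPM and 26.0 to 148 CPM in hippocampus. Ly6c2 was the tested marker that passed in neither tissue (0.46, adjusted p = 0.310, and 0.07, adjusted p = 0.906). None of the 9 was at 0 in a whole group, and the defining monocyte receptor Ccr2 held at most 2.70 CPM in cortex and 6.67 CPM in hippocampus. Pf4 stood at 96.7 CPM in the hippocampus of mouse 41, against a median of 8.13 CPM. Without mouse 41, 4 of 5 tested rose in hippocampus, with Pf4 at 1.11 (adjusted p = 0.0457), Mrc1 at 2.08, S100a4 at 1.87 and Ms4a7 as the added gene (1.99). The part of these cells in the members' differences was not tested.

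Neutrophils, which also contain lysozyme, gave 1 testable marker of 6 in hippocampus, S100a8, which did not pass (log2 fold change 3.49, adjusted p = 0.0947) and stood at 0.42 without mouse 41. The list summed to 9.16 to 17.2 CPM in control and 9.33 to 21.7 CPM in transgenic cortices, with Ly6g at 0 in all hippocampal controls. Of the blood genes 3 of 4 tested rose in cortex (Hba-a2 at 0.82, Hba-a1 at 0.69 and Hbb-bt at 0.54), and their list summed to 648 to 939 CPM in control and 710 to 2214 CPM in transgenic cortices. In hippocampus 0 of 4 passed, although their log2 fold changes were larger (1.02 to 1.22, adjusted p from 0.101 to 0.196). Without mouse 41 their median was 0.41. The difference between tissues passed for 0 of 4. Dendritic cells also carry Itgax, and of their list 0 of 1 tested marker passed in cortex and 0 of 2 in hippocampus, and Clec9a was at 0 in cortical controls and Xcr1 at 0 in transgenic cortices. Their parts in the members' differences were not tested.

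Of the markers of other brain cells, those of astrocytes and excitatory neurons gave the most calls. Of 6 astrocyte genes 4 rose in cortex and 5 in hippocampus (medians 0.49 and 0.58), with Gfap, the filament protein of reactive astrocytes, at 2.27 and 2.32. Of 6 genes of excitatory neurons, the cells that carry poly-GA, 4 fell in cortex and 5 in hippocampus (medians -0.63 and -0.87), with Camk2a at -0.74 and -1.15 and Neurod6 at -0.78 and -1.97. Oligodendrocyte genes gave 1 call of 6 in cortex (Cnp, 0.35) and 0 of 6 in hippocampus (medians 0.19 and 0.07). Of the genes of inhibitory neurons 1 of 6 rose in cortex (Vip, 1.31) and 2 of 6 in hippocampus (Vip, 1.16, and Gad2, 0.40). Without mouse 41 the same 2 rose in hippocampus and Sst fell (-0.355, adjusted p = 0.0457). The oligodendrocyte median in hippocampus was then -0.036, with 0 of 6 passing. The part of these shifts in the members' differences was not tested.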

How the data were processed

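Bulk RNA of cortex and hippocampus was sequenced with prime-seq, a method that reads transcript 3′ ends. Per the labels, the authors demultiplexed the reads, ran FastQC 0.11.8, trimmed with cutadapt 1.12, and mapped and counted with zUMIs 2.9.7e and STAR on mm39, and deposited whole-number counts per gene (whether reads or molecules is not stated); 0 count columns were left unused. Groups came from the sample titles. Genes were named through a symbol table (43308 of 64361 genes, 96.1% of counts).

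Comparisons used edgeR 4.0.16 in R 4.3.3: TMM scaling, a filterByExpr minimum of 10 counts, a quasi-likelihood F-test whose design held genotype or tissue and batch, and Benjamini-Hochberg adjustment over all genes tested with a threshold of 0.05. The standard error is the log2 fold change divided by the square root of F. CPM are counts scaled to a total of 1000000, without TMM. A count of 0 allows up to 3 counts, and such limits cover counting error only. Alternatives were DESeq2 1.42.0 with and without batch, limma 3.58.1 with voom weights, other scalings, no filter or a minimum of 20, no batch term, each batch alone, thinning, mouse as a block and each library left out; leaving out the 3 libraries of under 1200000 counts or the hippocampal ones of over 1000 CPM of Rorb, and leaving Mef2c out of the homeostatic reference were added after the data were seen. The fits were tested on simulated data.

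The same mouse number in both tissues marks the same animal, which pairs the tissues. Deviations from group means correlated between the tissues of a mouse at -0.091 to 0.207 over the 10 mice. No 2 of 46 replicate pairs held identical counts or differed by only sampling noise (chi-square per degree of freedom 2.10 to 15.1).

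All 10 members and all listed partners are named. From other lists the text names at most the 3 genes of lowest adjusted p, those that passed against their list, and markers at 0. Some single genes beside these (Itgam, Ccr2, Ms4a7, Rorb, T cell genes) were chosen with their values known. A gene of the homeostatic list is not reported here by name. Members and lists were chosen with earlier results of these data known. Promoter sequences are from RefSeq (GRCm38.p6), a different build from that of the counts, and serve as sequence only.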

Additional observations from a re-analysis of the deposited data

Results flagged for a closer look

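In the 60 groups of 4 to 6 libraries tested for a library far from the others (each member's CPM, the summed levels of the members and of 3 marker lists, and the members per 100 pan-microglia counts), 6 had one, where chance gives about 1 in 20. Clec7a was highest in the cortex of GA-Camk2a mouse 16, at 16.2 CPM against 7.15 to 9.49 CPM in the other 5. It was lowest in the hippocampus of mouse 30, at 8.06 CPM against 12.8 to 15.4 CPM. Lgals3 was highest in the hippocampus of mouse 16, at 58.5 CPM against 14.2 to 29.5 CPM.

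The hippocampal library of mouse 41 stood apart in each of the 3 marker lists tested, which hold no member. Its monocyte and border macrophage markers summed to 148 CPM, its blood genes to 5554 CPM and its neutrophil markers to 860 CPM, against at most 52.2, 1704 and 16.9 CPM in the other 5. No member stood apart in that library by this measure.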

How the results depend on the processing

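Members that rose with genotype kept their direction under all alternatives run. In cortex 7 to 10 passed, the number following that of members left to test apart from Axl in batch 2 alone and after thinning. In hippocampus 9 or 10 passed, except in batch 1 alone (3 and 2 libraries), where 5 passed. Leaving out 1 library at a time left 8 to 9 in cortex and 10 in hippocampus. The difference between tissues had 0 members under each alternative, with DESeq2 giving no adjusted p for some sparse members.

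Between the tissues of control mice the 1 call (Cd52) became 0 with DESeq2 with or without batch, no filter, batch 1 alone, thinning and the mouse as a replicate block, stayed 1 in batch 2 alone with Spp1 in place of Cd52, and was 0 to 2 when a library was left out. In transgenic mice the 4 calls became 0 in batch 1 alone, 2 in batch 2 alone, 2 after thinning, and 1 to 5 when a library was left out; Cst7 lost its call in 6 of 13 analyses and Cd68 in 4, and Spp1 gained one in 3. Without the hippocampal libraries high in Rorb, the tissue difference of Lgals3bp in transgenic mice turned to -0.51. Pairing by mouse changed no other member's count by more than 1.5 times. With homeostatic genes as the reference 10 members were separate in cortex in place of 3, and 8 with Mef2c left out of that list. The causes were not tested. Over all genes, 829 rose and 805 fell in cortex, 132 and 98 in batch 2 alone, and 566 to 796 and 474 to 750 with 1 library left out. In hippocampus 739 rose and 886 fell, 48 and 67 in batch 1 alone, and 449 to 814 and 579 to 1016 with 1 left out. The fewest falls came without control mouse 31 in both tissues, and hippocampal rises numbered 449 without control mouse 20 and 459 without control mouse 31. Between control tissues 1285 genes were higher in hippocampus, and 808 without the cortex of mouse 38.

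Depth limits Clec7a and Itgax, which had 7 and 8 counts over all cortical controls. The fit without a filter gave smaller standard errors (Spp1 in cortex 0.13 in place of 0.25), and with them smaller p-values for some members.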
